A study of Mus musculus with 6 samples.

Results

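Long noncoding RNAs are transcribed and processed much like mRNAs but are not known to serve as templates for proteins, and several of the most abundant ones stay in the nucleus. The 8 RNAs described here are Malat1, Neat1, Miat, Rmst, Snhg11, Gas5, Snhg1 and Rn45s, the precursor of the ribosomal RNAs. They were found by their gene symbols, 8 of 23955 genes in the deposited tables, and were proposed because of their levels and regional differences in these same libraries. Their values are therefore a description, and no test is given for them. They offer a view of RNA that is not translated, or hardly so, in material purified by way of tagged ribosomes.

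The libraries came from adult mice of both sexes on a C57BL/6 background. Every mouse carried 1 Slc1a3 allele with an inserted tamoxifen-inducible Cre (Slc1a3tm1(cre/ERT2)Mgoe), the GFP reporter Tg(CAG-cat,-EGFP)1Rbns and floxed Rpl22 that switches to an HA-tagged form (B6N.129-Rpl22 tm1.1Psam/J), written Rpl22HA fl/fl. Tamoxifen was given by gavage at 9 weeks, 3 times at intervals of 48 hours and at 0.4 mg per g, and tissue was taken at 3 months. There were 3 libraries of the diencephalon, from which the tissue near the third ventricle had been left out, and 3 of cortical grey matter cleared of meninges and white matter. Each library pooled 3 mice. The Cre is driven by the locus of Slc1a3, an astrocyte glutamate transporter, so the tag marks cells in which that locus was active when tamoxifen was given. All groups share the alleles and the tamoxifen, and unpurified RNA of the same tissue was not analysed here, so enrichment by the tag cannot be measured for these RNAs.

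The RNAs differ in where and how they act. Rn45s is made by RNA polymerase I in the nucleolus and is cut into the ribosomal RNAs. Malat1 gathers in nuclear speckles beside splicing factors, the long form of Neat1 builds the nuclear bodies called paraspeckles, and Miat, also named Gomafu, is a nuclear RNA of neurons. Rmst was described in the developing brain and, in human neural stem cells, as a partner of the transcription factor SOX2. Gas5, Snhg1 and Snhg11 are host genes: their introns hold small nucleolar RNAs, which guide chemical modification of ribosomal and other RNAs. Spliced Gas5 and Snhg1 are known to be bound by ribosomes and removed by nonsense-mediated decay.

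Malat1 and the long form of Neat1 share an unusual 3′ end, which has no poly(A) tail and is protected by a helix of U-rich and A-rich stretches. The ends are shown because they are the structural feature that sets these nuclear RNAs apart from mRNAs. They are given as DNA from GENCODE M21 on GRCm38, a build other than the one used for the counts, with T for U. Capitals mark the longest stretch that the last 90 bases of the long Neat1 form share with Malat1, of 16 bases with a U-rich end, and the longest shared stretch after it, the A-rich one of 11 bases. The Malat1 stretch lies at chr19:5795982-5796071 on the minus strand, at positions 6602 to 6691 of a transcript of 6983 bases. The Neat1 stretch lies at chr19:5824708-5824797 on the minus strand and ends the long form, at positions 20682 to 20771 of 20771.
Malat1: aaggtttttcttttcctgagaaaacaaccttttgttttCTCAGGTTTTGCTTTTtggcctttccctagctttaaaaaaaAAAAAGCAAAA
Neat1 long form: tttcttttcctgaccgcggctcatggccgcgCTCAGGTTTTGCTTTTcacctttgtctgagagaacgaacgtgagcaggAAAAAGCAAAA
Read on the transcript's own strand, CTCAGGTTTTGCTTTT followed within 100 bases by AAAAAGCAAAA occurred in 2 of 141767 GENCODE transcripts, or 0.00141%, which were these 2. The Neat1 entry behind the counts is 3177 bases long, as the short form is, so reads from most of the long form had no place in it.

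Miat carries copies of TACTAAC, written UACUAAC in RNA, the intron branch-point sequence that the splicing factor SF1 binds. The stretch shown holds 3 of its 6 copies, in capitals, and lies at chr5:112216747-112216817 of GRCm38 on the minus strand, at positions 5171 to 5241 of 8758 in the GENCODE transcript.
Miat: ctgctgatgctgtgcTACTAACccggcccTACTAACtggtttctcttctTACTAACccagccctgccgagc
Among 1066 transcripts within 1000 bases of its length, 215, or 20.2%, held TACTAAC at least once on their own strand. At least 6 copies were found in 2 of them, or 0.188%. The set and both counts include the Miat transcript itself.

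Gas5 and Snhg1 have been grouped with host genes whose RNAs begin with a run of pyrimidines. So do mRNAs of the 5′ TOP class, whose translation follows cell growth. The 50 bases before and the 50 from the start site are shown, from RefSeq on GRCm38.p6, for chr1:161035116-161035215 (Gas5) and chr19:8723437-8723536 (Snhg1), both on the plus strand. Capitals mark the unbroken pyrimidines from the first transcribed base, a C in both. RefSeq held 2 start windows for Gas5. The one shown begins as a GENCODE transcript of 2556 bases does, and the run of the other is not given here.
Gas5: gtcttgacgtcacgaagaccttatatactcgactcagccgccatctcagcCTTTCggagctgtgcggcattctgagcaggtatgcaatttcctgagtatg
Snhg1: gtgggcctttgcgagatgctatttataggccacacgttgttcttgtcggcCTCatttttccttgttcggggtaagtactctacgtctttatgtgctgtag
The run was 5 bases in Gas5 and 3 in Snhg1, where an A ended it. The start shown for Snhg1 thus does not bear out a longer run. Of 32851 RefSeq windows, read on the strand of the gene, 2.51% began transcription with C in a run of at least 5 pyrimidines and 5.81% in one of at least 3. Among 38 genes of a list of 5′ TOP translation genes with a window, 9 had a run of at least 5. For these genes the longest run over all windows of a gene was taken.

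Expected counts, by which the RSEM program shares reads among transcripts, summed to 1840344 to 2078793 in the diencephalic libraries and to 1733145 to 2334237 in the cortical ones. CPM below are counts scaled to a common library size by edgeR's TMM factors, and TPM are the authors' values, which also allow for gene length. Cortical replicate 3 stood apart: chi-square per degree of freedom was 7.47 and 6.48 against cortical replicates 1 and 2, while the other pairs within a region lay between 2.71 and 3.64. Its level was above that of both other cortical libraries for 6 of the 8 RNAs, all but Neat1 and Rmst, while the median deviation over all tested genes was 0.00 on the log2 scale. Sex-linked genes differed between libraries too. The 4 Y-linked genes summed to 153, 8.44 and 166 CPM in diencephalic replicates 1 to 3 and to 145, 149 and 0 CPM in cortical replicates 1 to 3, and Xist, the X-inactivation RNA, had 4.21, 43.8 and 1.57 CPM against 0, 2.13 and 137 CPM. Of the 20 listed astrocyte markers all were measured. They summed to 22974 to 26685 CPM in diencephalon and 31867 to 41344 CPM in cortical grey matter. By edgeR 2 of them were higher in diencephalon, 8 lower and 10 did not pass, so the sum does not speak for every marker.

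All 8 RNAs together took 4.37%, 3.87% and 4.91% of the counts in diencephalic replicates 1 to 3, against 1.97%, 2.08% and 2.56% in cortical replicates 1 to 3. Most of this was Rn45s; without it the other 7 took 0.346% to 0.434% in diencephalon and 0.202% to 0.325% in cortical grey matter. The 3 diencephalic libraries were above the 3 cortical ones in both sums.

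**Figure D1:**
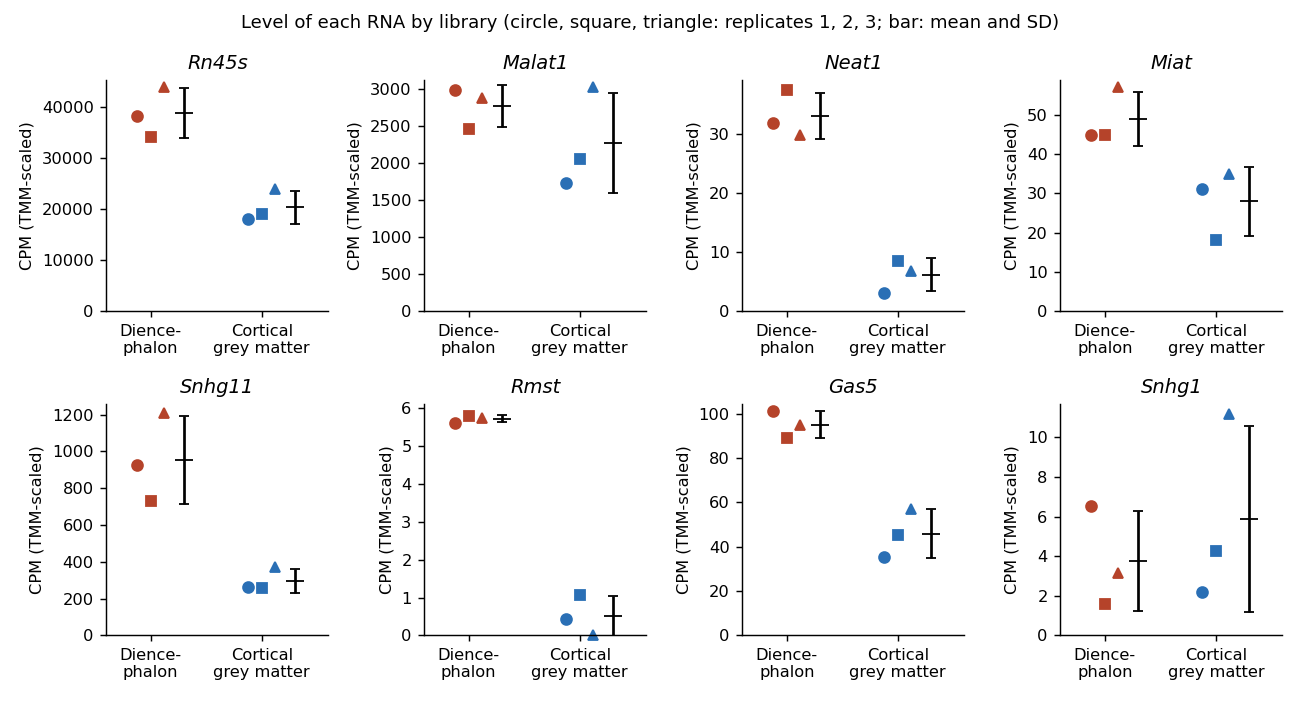
Level of each of the 8 RNAs in every library, as TMM-scaled CPM on a linear axis from 0, with diencephalon left of cortical grey matter; circle, square and triangle are replicates 1, 2 and 3, and bars are the mean and SD over 3 libraries. The groups overlap for Malat1 and Snhg1 and are apart for the other 6, all higher in diencephalon.

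The groups did not overlap for 6 of the 8 RNAs, each with the higher level in diencephalon: Rn45s, Neat1, Miat, Rmst, Snhg11 and Gas5. Malat1 overlapped, with its highest value in a cortical library, and so did Snhg1. Over all 10568 tested genes, 21.8% were apart with diencephalon higher and 20.8% with diencephalon lower. In edgeR's quasi-likelihood test 14.9% were called higher and 14.8% lower. Since the 8 were chosen from this contrast, nothing is read from their share. Of the 8, 7 passed the filter on low counts, and Neat1 and Rmst passed it through the diencephalic libraries only, while Snhg1 did not pass. Leaving out cortical replicate 3 gave log2 differences of 1.06 for Rn45s, 0.54 for Malat1, 2.55 for Neat1, 0.97 for Miat, 1.88 for Snhg11, 2.88 for Rmst and 1.24 for Gas5.

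**Figure D2:**
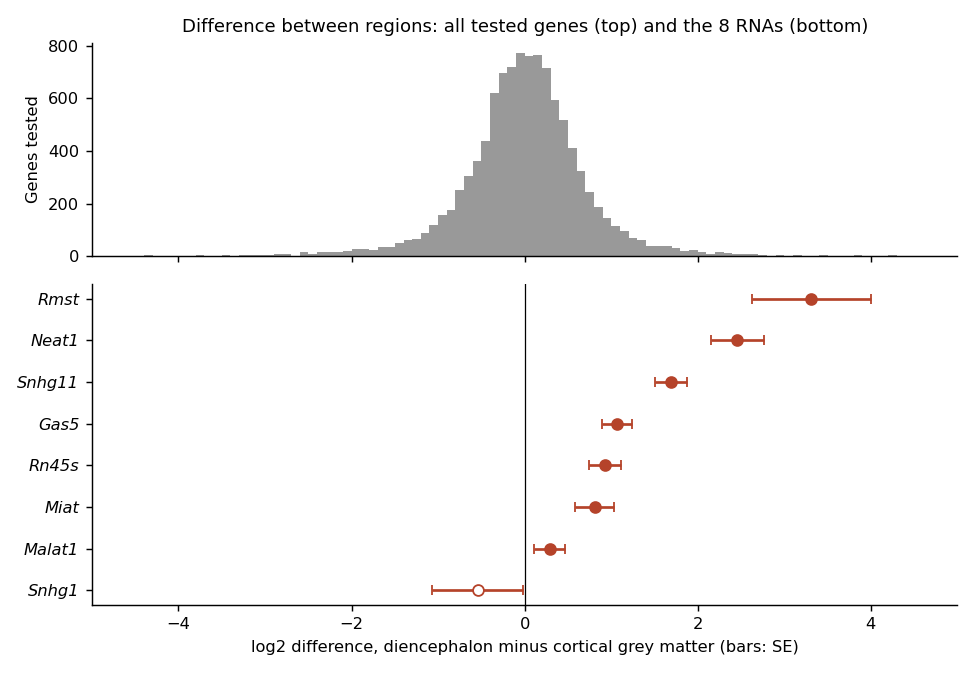
Top, number of tested genes at each log2 difference between diencephalon and cortical grey matter; bottom, the log2 difference of each of the 8 RNAs with its SE, the open circle marking Snhg1, which was fitted without a count filter. The differences run from -0.54 for Snhg1 to 3.31 for Rmst, around a median of 0.01 for all tested genes.

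Rn45s was the most abundant entry of the libraries and about 1.91-fold higher in diencephalon. It took 3.95%, 3.52% and 4.48% of counts in diencephalic replicates 1 to 3, against 1.77%, 1.85% and 2.23% in cortical replicates 1 to 3. The lowest diencephalic share was above the highest cortical one. Counting error was small beside this: the exact 95% Clopper-Pearson interval was 3.49% to 3.55% in diencephalic replicate 2 and 1.75% to 1.78% in cortical replicate 1, and such intervals cover counting error only. The mean share was 3.98% ± 0.480 in diencephalon, against 1.95% ± 0.248 in the cortical libraries (SD, n = 3 each), and the log2 difference in TMM-scaled counts was 0.93 ± 0.18 (SE). It ranked first by count in each library but cortical replicate 1, where it ranked second. The entry is 5833 bases long, and which pieces of the precursor it covers is not given in the sources used here, so precursor and mature ribosomal RNA cannot be told apart.

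The genes of the machinery that makes ribosomes held none that was called higher in diencephalon. Of 40 listed genes of RNA polymerase I and ribosome biogenesis 32 were tested, 0 were higher and 3 lower in diencephalon by edgeR, DESeq2 also calling 0 higher and 3 lower and limma with voom 0 and 4. At an unadjusted p under 0.05, 2 were higher and 6 lower. The list's median log2 difference was -0.19, against 0.01 for all tested genes. Npm1, a nucleolar chaperone of ribosome assembly, had 154, 114 and 133 CPM in diencephalon against 209, 226 and 232 CPM in cortical grey matter, a log2 difference of -0.73 ± 0.13 (edgeR adjusted p = 0.0002274). Ncl, the nucleolar protein nucleolin, had 197, 188 and 182 CPM against 256, 272 and 237 CPM (-0.43 ± 0.12, edgeR adjusted p = 0.009659), a call lost on TPM (largest adjusted p 0.2295). The third, Rrp1, a nucleolar protein, lay at -0.51 ± 0.16 (edgeR adjusted p = 0.01838) and lost its call under 6 settings, with adjusted p up to 0.1577.

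The mRNAs of the ribosome itself were lower in diencephalon or did not pass. Of 57 listed 5′ TOP translation genes 56 were tested with 0 higher and 20 lower by edgeR, 0 higher and 17 lower by DESeq2, 0 and 20 by limma with voom, and 0 and 29 at an unadjusted p under 0.05. Their median log2 difference was -0.58. Rpl4, a protein of the large ribosomal subunit, had 116, 87.5 and 102 CPM in diencephalon against 157, 204 and 175 CPM in cortical grey matter (log2 difference -0.81 ± 0.14, edgeR adjusted p = 0.0001693). Eef1a1, the elongation factor that brings tRNA to the ribosome, lay at -0.69 ± 0.13 (edgeR adjusted p = 0.0003016), and Rps7 of the small subunit was 2.83-fold lower (edgeR adjusted p = 0.0003208). These mRNAs are short, with a median length of 885 bases, and the tested genes of 325 to 1475 bases had a median log2 difference of -0.35. Rpl22, the tagged protein's own gene, had 26.7, 21.1 and 20.9 CPM in diencephalon against 22.7, 30.4 and 28.6 CPM in cortical grey matter, with overlapping groups (-0.24 ± 0.23, edgeR adjusted p = 0.4738).

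Gene length moved with the regional difference across the whole table. With the tested genes split by length into 10 classes of equal size, the shortest class had 24 genes higher and 215 lower in diencephalon, and the longest, of 6654 bases and more, 302 higher and 164 lower; its median log2 difference was 0.15. Malat1 and Miat belong to the longest class and Rn45s and Snhg11 to the next, whose median was 0.12. Beyond the median of its class, the difference was 0.13 for Malat1, 0.65 for Miat, 0.81 for Rn45s and 1.57 for Snhg11. Neat1, Gas5 and Rmst lie in classes with medians of 0.06, -0.00 and -0.00, and differed by 2.40, 1.07 and 3.32 beyond them.

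**Figure D3:**
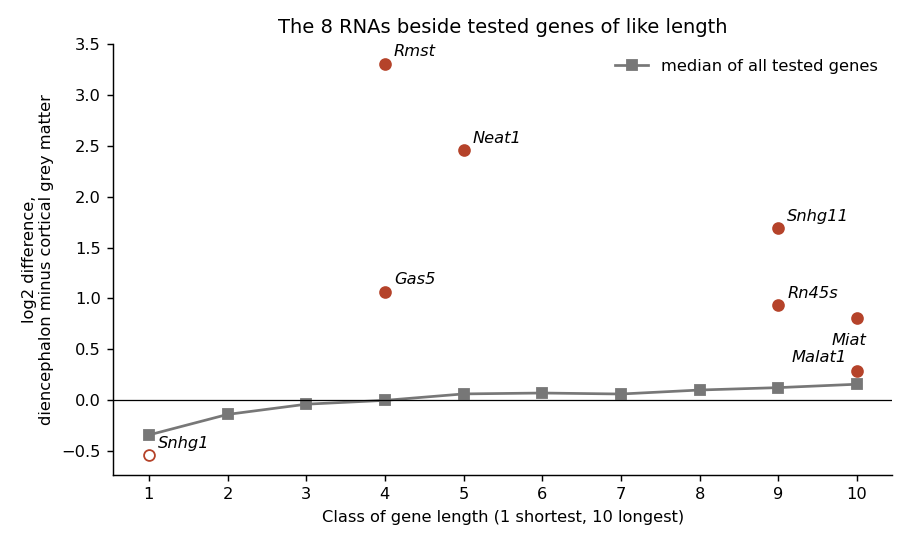
Log2 difference between diencephalon and cortical grey matter against class of gene length, from 1 (shortest) to 10 (longest); the line joins the medians of the tested genes in each class, the labelled points are the 8 RNAs, and the open circle marks Snhg1, fitted without a count filter. The medians run from -0.35 in the shortest class to 0.15 in the longest, and Rmst, Neat1 and Snhg11 lie farthest above the line.

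Malat1 was abundant in both regions and its groups overlapped. It had 6368, 4642 and 5490 counts in diencephalic replicates 1 to 3, against 3962, 3859 and 4864 in cortical replicates 1 to 3. Its share of counts was 0.306%, 0.252% and 0.292% against 0.170%, 0.198% and 0.281%, and in TMM-scaled terms 2979, 2448 and 2869 CPM against 1729, 2054 and 3021 CPM. The highest of the 6 scaled values was that of cortical replicate 3, while cortical replicates 1 and 2 lay below all 3 diencephalic libraries. The log2 difference was 0.29 ± 0.17, or 1.22-fold. Without cortical replicate 3 it was 0.54, and without cortical replicate 1 it was 0.12.

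Neat1 was far rarer and apart between the regions. It had 68, 71 and 57 counts in diencephalic replicates 1 to 3, against 7, 16 and 11 in cortical replicates 1 to 3. In scaled terms this was 33.0 ± 3.96 CPM in diencephalon against 6.13 ± 2.80 CPM in cortical libraries (SD, n = 3 each), a log2 difference of 2.46 ± 0.31, or 5.49-fold. The lowest diencephalic count was above 3 times the highest cortical one. Malat1 and Neat1, neighbours on chromosome 19, thus stood in different proportion: per length, by TPM, Malat1 was 41.2, 28.8 and 42.4 times Neat1 in diencephalon and 249, 106 and 195 times in cortical grey matter. The Neat1 values count the short form together with the stretch of the long form that it shares.

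The proteins that gather at speckles and paraspeckles did not share one direction. Of 24 listed genes, all tested, edgeR called 2 higher and 4 lower in diencephalon, around a median of -0.05. Pnn, a speckle protein of splicing, had 88.0, 77.0 and 86.8 CPM in diencephalon against 150, 136 and 152 CPM in cortical grey matter (log2 difference -0.80 ± 0.13, edgeR adjusted p = 8.552e-05). Sfpq, which paraspeckles need, had 62.2, 41.7 and 40.2 CPM against 67.6, 84.1 and 60.3 CPM, with overlapping groups (-0.55 ± 0.19, edgeR adjusted p = 0.03455), and its call was lost under 8 settings, with adjusted p up to 0.1914. Srsf1, a splicing factor of speckles, lay at 0.51 ± 0.19 (edgeR adjusted p = 0.04367, up to 0.1499 in other settings).

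Miat was low in count and higher in diencephalon. It had 96, 85 and 109 counts in diencephalic replicates 1 to 3, against 71, 34 and 56 in cortical replicates 1 to 3, which is 44.9, 44.8 and 57.0 CPM against 31.0, 18.1 and 34.8 CPM. The groups were apart, with the smallest gap between cortical replicate 3 and diencephalic replicate 2. The log2 difference was 0.81 ± 0.22, or 1.75-fold, and 0.57 without cortical replicate 2, the lowest library.

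Snhg11, a host gene rich in neurons, was the most abundant of the 8 after Rn45s and Malat1. It took 0.0951%, 0.0754% and 0.123% of counts in diencephalic replicates 1 to 3, against 0.0256%, 0.0248% and 0.0345% in cortical replicates 1 to 3. In scaled counts it had 925, 732 and 1208 CPM against 261, 257 and 371 CPM. The groups were well apart, with a log2 difference of 1.69 ± 0.18, or 3.23-fold. The files list Snhg11 under an accession of the protein-coding class, while RefSeq classes the gene as a long noncoding RNA, so it stands outside the noncoding class counted further on.

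Rmst was at the edge of detection. It had 12, 11 and 11 counts in diencephalic replicates 1 to 3, against 1, 2 and 0 in cortical replicates 1 to 3. In diencephalon this was 5.61, 5.80 and 5.75 CPM, and in cortical grey matter 0.436, 1.06 and 0 CPM, under the 1.29 to 1.73 CPM (unscaled) to which 3 counts correspond there. The summed counts were 34 and 3, and the ratio of the summed shares was 11.7 with an exact 95% interval of 3.69 to 59.8. That interval pools the libraries of a region and covers counting error only, not the spread between libraries. The fitted log2 difference of 3.31 ± 0.69 depends on the small count added by the fit.

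Neuronal markers differed between the regions in both directions, and their part in the differences of these RNAs was not tested. In bulk material such as this, fewer cells of a type and less RNA per cell cannot be told apart. The 15 subcortical neuron markers summed to 1442 to 1494 CPM in diencephalon and 478 to 516 CPM in cortical grey matter, and of 8 tested 7 were higher and 1 lower. The 13 cortical excitatory markers summed to 1013 to 1427 CPM and 5625 to 6715 CPM, with 12 of 12 tested lower and Emx1 at 0 in every library. The 20 pan-neuronal markers, all tested, summed to 3726 to 4033 CPM in diencephalon and 4731 to 6376 CPM in cortical grey matter, cortical replicate 3 being the highest, with 5 higher and 5 lower. GABAergic markers summed to 251 to 280 CPM and 144 to 184 CPM, with 3 of 6 tested higher.

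Markers of other glia and of tissue borders differed between the regions in several lists. Oligodendrocyte markers summed to 1801 to 2398 CPM in diencephalon and 817 to 1061 CPM in cortical grey matter, with 8 of 9 tested higher. Meningeal and fibroblast markers summed to 817 to 1229 CPM and 4404 to 8051 CPM, with 9 of 10 lower. Choroid plexus and ependymal markers summed to 135 to 158 CPM and 25.5 to 58.0 CPM, with 4 of 5 tested higher and 1 lower. Oligodendrocyte progenitor markers summed to 186 to 221 CPM and 266 to 281 CPM, with 3 of 6 tested lower, and vascular markers to 94.4 to 121 CPM and 153 to 262 CPM, with 1 of 5 tested lower. Microglial markers summed to 299 to 535 CPM and 429 to 1016 CPM, with overlapping groups, 2 of 9 tested lower and the highest sum in cortical replicate 3. No gene of these lists was at 0 throughout.

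Gas5 was higher in diencephalon in every library. It had 216, 169 and 182 counts in diencephalic replicates 1 to 3, against 81, 85 and 92 in cortical replicates 1 to 3, or 101, 89.1 and 95.1 CPM against 35.3, 45.3 and 57.1 CPM. The groups were apart, and the log2 difference was 1.07 ± 0.18, or 2.10-fold. The entry of 2554 bases is close in length to a GENCODE transcript of 2556 bases classed as a retained intron, so reads of spliced and unspliced Gas5 cannot be told apart.

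Snhg1 could not be ranked between the regions at this depth. It had 14, 3 and 6 counts in diencephalic replicates 1 to 3, against 5, 8 and 18 in cortical replicates 1 to 3. The highest value was in cortical replicate 3 and the lowest in diencephalic replicate 2, and the groups overlapped. The log2 difference without a count filter was -0.54 ± 0.53, and the ratio of summed shares was 0.769 with an exact 95% interval of 0.428 to 1.36. Here too the interval pools the libraries of a region and covers counting error only. At 476 bases its entry is the shortest of the 8.

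Other noncoding host genes, as found under their listed symbols, were near the limit of detection. Of 23 listed symbols 14 were in the files and none passed the count filter. Together these 14 had 10.3, 11.1 and 16.2 CPM in diencephalon against 11.3, 10.1 and 9.94 CPM in cortical grey matter. The 23 hold Zfas1 under both its older and its newer symbol. A host gene filed under a symbol outside this list was not counted here. Snhg3 and Snhg8 had 0 to 2.11 CPM in every library. Zfas1, listed in the files under its older symbol 1500012F01Rik, had 0.468, 1.58 and 3.66 CPM in diencephalon against 1.75, 0.532 and 1.86 CPM in cortical grey matter, with overlapping groups. Of the small nucleolar RNAs of Gas5 and Snhg1, 3 of 21 were in the files, each listed at 0 in all libraries. Among 19 coding host genes tested, edgeR called 1 higher and 6 lower in diencephalon; their median log2 difference was -0.35. Rpsa, a protein of the small ribosomal subunit, lay at -0.90 ± 0.17 (edgeR adjusted p = 0.0003286), Hspa8, a chaperone, at -0.67 ± 0.15 (edgeR adjusted p = 0.001866, up to 0.07161 on TPM), and Eif4a2, a translation initiation helicase, at 0.51 ± 0.14 (edgeR adjusted p = 0.007079).

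Most nonsense-mediated decay factors, which act on spliced host RNAs, did not pass the test. Of 19 genes, all tested, edgeR called 3 higher and 1 lower in diencephalon, around a median log2 difference of -0.03. Smg1, the kinase of the pathway, had 228, 233 and 299 CPM in diencephalon against 150, 157 and 167 CPM in cortical grey matter (log2 difference 0.68 ± 0.13, edgeR adjusted p = 0.0004252), and Dcp2, the decapping enzyme, lay at 0.50 ± 0.12 (edgeR adjusted p = 0.003233). Dcp1a, at 0.35 ± 0.13 (edgeR adjusted p = 0.04724, up to 0.1724), and Upf3b, at -0.88 ± 0.28 (edgeR adjusted p = 0.02183, up to 0.115), lost their calls under several settings. Upf1, the central helicase, had overlapping groups (0.04 ± 0.28, edgeR adjusted p = 0.9302).

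Per length, the order of the 8 by mean TPM in diencephalon was Rn45s, Malat1, Snhg11, Gas5, Snhg1, Neat1, Miat and Rmst. The means ± SD (n = 3) were 25038 ± 3296 TPM for Rn45s, 1479 ± 139 for Malat1, 612 ± 157 for Snhg11 and 146 ± 7.47 for Gas5. Below these, Snhg1 at 46.6 ± 30.8 TPM could not be told from Neat1 at 40.2 ± 5.0 TPM, its libraries reaching from 20.1 to 80.3 TPM, and Miat had 20.9 ± 3.16 and Rmst 8.32 ± 0.254 TPM. In cortical grey matter the first 3 kept their places, with 11419 ± 1871 TPM for Rn45s, 1056 ± 320 for Malat1 and 165 ± 37.9 for Snhg11. Snhg1 at 62.9 ± 50.8 TPM overlapped Gas5 at 61.2 ± 14.7, and Miat at 10.4 ± 3.40 overlapped Neat1 at 6.45 ± 2.86. Rmst came last, with 0.627 ± 0.663 TPM.

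For each of the 8, the 2 genes with the most similar profile were sought among 8763 tested genes of at least 10 CPM, by the root mean square difference of log2 CPM centred on each gene's mean over the 6 libraries. Closest to Rn45s were Zfp109, at 0.06, and Ammecr1l, at 0.07, and closest to Malat1 Kcna4 and Crebl2, both at 0.10. For Miat they were Ndst2 (0.08) and Ccser1 (0.09), for Gas5 Tmc7 (0.08) and Slc25a27 (0.11), and for Snhg11 Cacna1g (0.12) and Slc9a3r2 (0.16). The low-count RNAs had no partner as close: Neat1 with Zic4 (0.25) and Trim67 (0.28), Rmst with Fhdc1 (0.21) and Ano5 (0.30), and Snhg1 with Cacna2d3 (0.43) and Pwp1 (0.44). Kcna4, a potassium channel subunit, had, as Malat1 did, its highest cortical value in replicate 3, with 69.2, 65.9 and 65.3 CPM in diencephalic replicates 1 to 3 against 38.0, 51.6 and 67.7 CPM in cortical replicates 1 to 3.

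Among other named long noncoding RNAs, those called were all higher in diencephalon. Of 76 listed symbols, 49 were in the files and 19 were tested. Symbols were matched as written, so a gene with several names may be listed more than once. Of the 19, edgeR called 10 higher and 0 lower. Their median log2 difference was 0.77, against 0.01 over all tested genes. DESeq2 and limma with voom each also called 10 higher and 0 lower, and at an unadjusted p under 0.05 there were 11 higher and 2 lower. The list was put together with earlier results of these data known, so its count describes these genes only.

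Meg3, an imprinted RNA expressed from the maternal chromosome and abundant in neurons, had 1139, 883 and 1142 CPM in diencephalic replicates 1 to 3 against 432, 364 and 475 CPM in cortical replicates 1 to 3. The groups were apart, with a log2 difference of 1.32 ± 0.14 (edgeR adjusted p = 2.954e-07). Rian, from the same imprinted cluster, had 136, 151 and 177 CPM against 68.5, 68.1 and 67.1 CPM (1.18 ± 0.14, edgeR adjusted p = 1.326e-06). Meg3 and Rian were both higher in each diencephalic library than in any cortical one.

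Tunar, a conserved neural RNA, had the largest log2 difference of the 19, with 29.9, 34.3 and 24 CPM in diencephalon against 6.98, 4.79 and 6.21 CPM in cortical grey matter (log2 difference 2.27 ± 0.29, edgeR adjusted p = 3.192e-06). Kcnq1ot1, an imprinted antisense RNA, had 317, 240 and 345 CPM against 137, 176 and 154 CPM (0.95 ± 0.15, edgeR adjusted p = 2.79e-05); since the strand setting is not given in the sources used here, its reads and those of Kcnq1 cannot be told apart. Sox2ot, whose gene overlaps that of the stem cell factor Sox2, lay at 1.03 ± 0.26 (edgeR adjusted p = 0.00436). The other 5 called stood under clone names or similar symbols, with log2 differences of 0.64 to 1.5. Other names that they may have are not given here.

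Other abundant RNAs of the list did not pass the test. Tug1, whose groups were apart, had 322, 375 and 350 CPM in diencephalon against 295, 291 and 293 CPM in cortical grey matter (log2 difference 0.25 ± 0.12, edgeR adjusted p = 0.1204), and it passed under total-count scaling and on TPM, with adjusted p down to 0.02615. Peg13 lay at 0.24 ± 0.14 (edgeR adjusted p = 0.2243), but it passed without cortical replicate 3 (0.42, edgeR adjusted p = 0.004966). 1700020I14Rik lay at -0.06 ± 0.12 (edgeR adjusted p = 0.7614) and 2900097C17Rik at -0.09 ± 0.13 (edgeR adjusted p = 0.6242). At the other end were 2 antisense RNAs of forebrain transcription factors, chosen after their values were seen. Emx2os lay at -1.24 ± 0.49 (edgeR adjusted p = 0.06173) and Dlx1as at -1.13 ± 0.53 (edgeR adjusted p = 0.113), both under 10 CPM in all libraries.

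**Figure D4:**
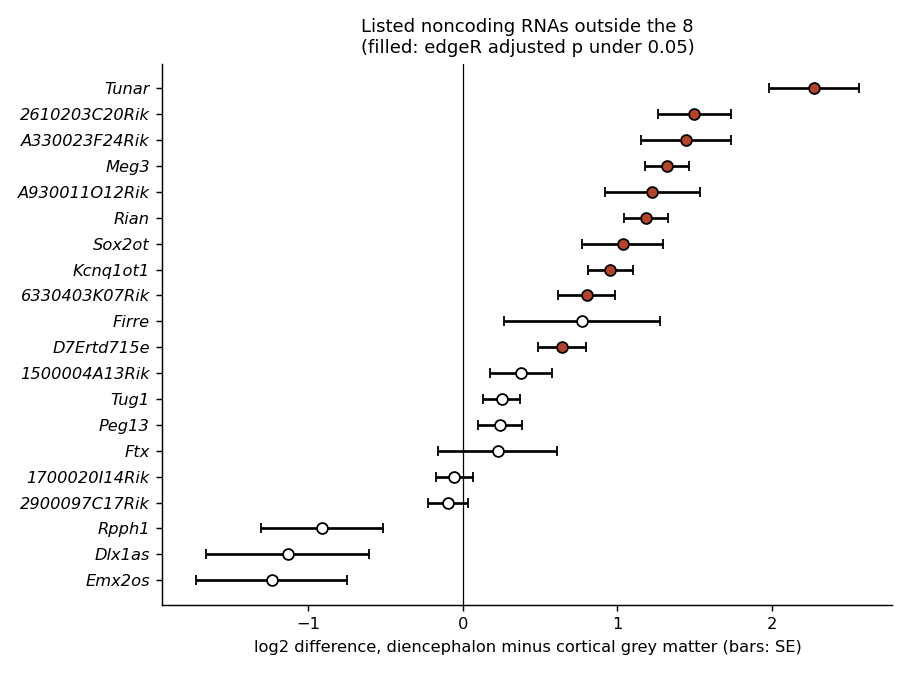
Log2 difference between diencephalon and cortical grey matter, with SE, for the 20 tested noncoding RNAs of the lists outside the 8; filled points have an edgeR adjusted p under 0.05. The 10 filled points all lie right of 0, from 0.64 for D7Ertd715e to 2.27 for Tunar.

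Short structural RNAs were nearly missing from the counts. Of 38 listed, 20 were in the files, 16 of these were at 0 in every library, and 1 was tested. That was Rpph1, the RNA of ribonuclease P, the enzyme that also cuts the end of Malat1, with 4.21, 10.6 and 6.79 CPM in diencephalon against 11.8, 20.2 and 8.07 CPM in cortical grey matter (log2 difference -0.91 ± 0.40, edgeR adjusted p = 0.08808). Its groups overlapped, and at 325 bases it was the shortest gene tested.

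The wider noncoding class held genes called in both directions. In the files 3390 genes have noncoding accessions only, and 536 to 634 of them had at least 1 count in a library. Of the 139 tested outside the 8, edgeR called 24 higher and 20 lower in diencephalon, or 17.3% and 14.4%, close to the 14.8% and 14.8% of the 10422 genes with a coding accession. The counts were 29 higher and 15 lower under total-count scaling, 30 and 20 without cortical replicate 3, 52 and 21 on log2(TPM + 1) and 44 and 20 on log2(TPM + 0.1). Their median log2 difference was -0.07, against 0.01 for the coding genes; it was 0.06 without cortical replicate 3, 0.03 under total-count scaling and 0.35 for the 608 tested on log2(TPM + 1), where that of all genes was 0.22.

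By summed share of counts the class outside the 8 took more in each diencephalic library than in any cortical one. It had 0.947%, 0.979% and 0.999% in diencephalic replicates 1 to 3 against 0.755%, 0.732% and 0.857% in cortical replicates 1 to 3. The groups were apart, with means of 0.975% ± 0.0263 and 0.781% ± 0.0666 (SD, n = 3 each; exact permutation test, two-sided p = 0.1, the smallest that 3 against 3 can give). The largest parts of it were 6820431F20Rik, Peg13 and Meg3.

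**Figure D5:**
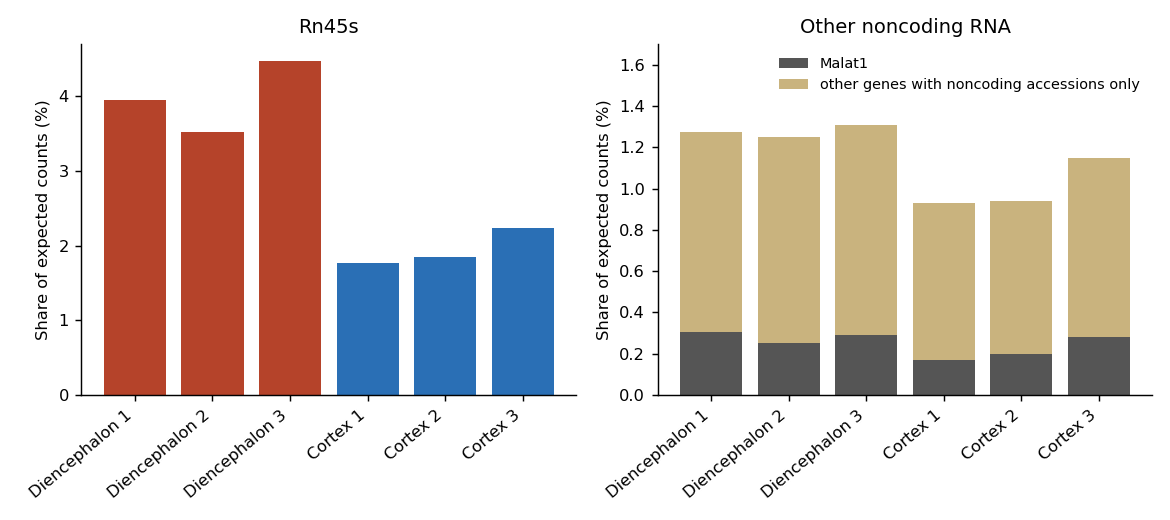
Share of the expected counts of each library, in percent from 0, taken by Rn45s (left) and by Malat1 and the other genes with noncoding accessions only, stacked (right), with diencephalic libraries left of cortical ones. Rn45s takes 3.52% to 4.48% in diencephalon and 1.77% to 2.23% in cortical grey matter, and the rest of the class 1.25% to 1.31% and 0.931% to 1.15%.

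Rn45s and Malat1 did not keep one ratio. Per length, by TPM, Rn45s was 15.5, 16.8 and 18.5 times Malat1 in diencephalic replicates 1 to 3 and 12.5, 11.2 and 9.57 times in cortical replicates 1 to 3. The ratio was higher in every diencephalic library than in any cortical one. Malat1 made up 20.2% to 24.1% of the noncoding class without Rn45s in diencephalon and 18.2% to 24.4% in cortical grey matter, with overlapping groups. Slc1a3, whose locus drives the Cre, had 721, 739 and 783 CPM in diencephalon against 1140, 1259 and 743 CPM in cortical grey matter, with overlapping groups; its call (-0.49 ± 0.16, edgeR adjusted p = 0.02441) was lost under 8 settings, with adjusted p up to 0.3675.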

How the data were processed

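RNA bound to tagged ribosomes was sequenced in 3 libraries of diencephalon and 3 of cortical grey matter. Per the labels' protocols, cDNA was amplified with the Ovation RNA-Seq system and sequenced on an Ion Proton. Per the submitters' processing notes RSEM and mm9 were used; not given in the sources used here are their versions, the aligner and whether strand was used. The deposited expected counts are RSEM estimates per gene, and 3.64% to 3.99% of the values of a library, over all 23955 genes with those at 0 included, differed from a whole number by more than 1e-09. The deposited TPM values are scaled by effective length and library, the deposited FPKM values were not used, and the authors' other columns give gene length and effective length.

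Expected counts were rounded, which moved totals by at most 6.94, filtered with filterByExpr (minimum count 10; 10568 genes kept), given TMM factors and tested in R 4.3.3 by the robust quasi-likelihood method of edgeR 4.0.16 (limma 3.58.1 for voom and TPM). Region was the single term, and p-values were adjusted over all tested genes after Benjamini and Hochberg, at 0.05. The libraries' common coefficient of biological variation came to 13.6%. The script was tested on simulated counts. Replicates are separate pools of mice, and no label pairs them across regions. Alternatives were DESeq2 1.42.0, voom, RLE size factors, total-count scaling, no filter or one at 30 counts, a replicate block, limma on log2(TPM + 1) and log2(TPM + 0.1) at a mean TPM of at least 1, removal of Rn45s and leaving out each library. The length correction and the noncoding class were added after seeing the data.

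The 8 RNAs and all lists were chosen with earlier results of these data known. Named are the 8, up to 4 genes per list with the smallest adjusted p whose groups do not overlap, a fixed set (Meg3, Xist, Kcnq1ot1, Tug1, Snhg3, Snhg8, Zfas1, Eef1a1, Rpl22, Slc1a3, Sfpq, Upf1), and the 2 genes most like each of the 8; Sox2ot, Peg13, 1700020I14Rik, 2900097C17Rik, Emx2os, Dlx1as, Rpph1 and 6820431F20Rik were named after their values were seen. One gene that this rule names is not reported here. Of the 8, 5 had a RefSeq promoter window. Intervals are exact at 95% and, without molecular identifiers, cover counting error only.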

Additional observations from a re-analysis of the deposited data

How the results depend on the processing

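The log2 differences of the 8 RNAs kept their direction in every setting that gave a value: Malat1 0.12 to 0.54, Neat1 2.08 to 2.79, Snhg11 1.49 to 1.88, Miat 0.57 to 1.05, Gas5 0.89 to 1.28, Rn45s 0.81 to 1.14, and Snhg1, fitted only where the filter let it through, -0.98 to -0.19. Rmst moved most, to 4.21 on log2(TPM + 0.1), and it ran from 2.88 to 4.18 when single libraries were left out. Over all genes, 1574 were higher and 1559 lower in diencephalon; without single libraries 1145 to 1681 and 1186 to 1692. On log2(TPM + 1) there were 2118 higher and 958 lower, on log2(TPM + 0.1) 1991 and 908, and under total-count scaling 2000 and 1229, so that 68.9%, 68.7% and 61.9% of calls were higher against 50.2%; the median of all genes then stood at 0.22, 0.23 and 0.11. Of the listed noncoding RNAs outside the 8, 10 were higher and 0 lower; without a count filter 2 were lower, C130071C03Rik and Rmrp, and leaving out single libraries gave 0 to 2. These were Emx2os without diencephalic replicate 1, C130071C03Rik and Rpph1 without diencephalic replicate 2, C130071C03Rik without cortical replicate 2, and Rmrp and Rpph1 without cortical replicate 3. The cause was not tested. Without cortical replicate 3, 0 of the ribosome biogenesis genes were higher and 4 lower, 0 of the 5′ TOP genes higher and 23 lower, and 0 of the speckle and paraspeckle genes higher and 4 lower. With summed TPM in place of counts, the shares of the 8 moved by more than 1 SD, by construction, since TPM divides by length, except those of Neat1 and Rmst in cortical grey matter. Deviations of libraries with the same replicate number had correlations of 0.10, -0.13 and 0.01. Those of libraries with different numbers ran from -0.23 to 0.23. With so few libraries, these values cannot decide whether the numbers pair them. A fit with the replicate number as a block gave 1506 higher and 1531 lower, with 10 and 0 of the listed noncoding RNAs. Snhg1 and Rmst, with at most 18 counts in any library, are limited by depth.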
